A study of Mus musculus with 21 samples.

Results

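Intermediate cells of a chemical reprogramming of mouse embryonic fibroblasts (MEFs) were compared between 2 stretches of the protocol, an early one and a late one. The early stage held 3 RNA-seq libraries, 1 from day 12 and 2 from day 16, and the late stage held 3, 1 each from day 20, day 26 and day 28. These are 6 of the 21 libraries of the series, and the libraries were assigned by the day in their labels alone. All 6 came from cells of the strain C57BL/6J-Tg(GOFGFP)11Imeg/RbrcxICR, a cross that carries a GFP transgene, and the MEFs share it. The remaining libraries included MEF (2), embryonic stem cells (ESC, 2) and chemically induced pluripotent lines (CiPSC, 7). The others were extraembryonic endoderm, as lines from embryos (eXEN, 2) and as cells in chemical medium (CeXEN, 2). The labels give no medium or compound for the intermediate cells, and they do not say whether the libraries came from separate cultures, so the p-values measure the spread between these libraries, which includes the differences between days. Values are FPKM, fragments scaled to transcript length and to the number of fragments mapped.

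Chemical reprogramming turns somatic cells into pluripotent cells with small molecules and without introduced transcription factor genes. The cells first lose the program of the fibroblast, then pass through a state like that of extraembryonic endoderm (XEN), the lineage that forms the yolk sac, and only later switch on the pluripotency network. XEN cells are known by the transcription factors Sox17, Gata4, Gata6 and Foxa2, by Sall4, and by thick basement membrane secreted from the parietal type.

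One library stands apart from its stage. Over the 14207 genes tested, those with at least 1 FPKM in at least 2 of the 6 libraries, day 16 replicate 1 correlated at 0.971 with day 20, at 0.964 with day 26 and at 0.940 with day 28, but at 0.932 with day 12 and at 0.921 with the other day 16 library. These are correlations across genes, which are not independent replicates. Day 12 and day 28 were the least alike, at 0.847. Every early value and difference below rests in part on day 16 replicate 1, the labels do not account for its position, and whether its label is right or its culture was further along was not tested. A processing mark also splits the libraries: day 12, day 16 replicate 1, day 20 and day 26 each have 446 loci with a low-data status in the quantifier's output, and day 16 replicate 2 and day 28 have 0. The selenoprotein genes differ along that split, with summed values of 44390 to 60950 FPKM in the first 4 libraries and of 1415 and 1814 in the other 2, and 25 such genes were therefore set aside. Each stage has 2 libraries of the first kind and 1 of the second, and differences within each kind are given for several genes and lists. The libraries were of like depth, 0.9 to 1.09 times that of day 12 by the value of a single fragment, and held 12943 to 13982 genes at 1 FPKM or more. Xist, the RNA that coats an inactive X chromosome, was at 22.7 FPKM in day 16 replicate 2 and between 2.68 and 7.47 in the other 5.

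The intermediate cells of both stages carried the XEN regulators. Sox17 was at 330.3, 599.5 and 431.8 FPKM on day 12 and in day 16 replicates 1 and 2, and at 513.3, 476.8 and 548.5 on days 20, 26 and 28, against a mean of 0.105 in the 2 MEF libraries and 424.3 in CeXEN. Gata4 ran from 188 FPKM on day 12 to 456.6 in day 16 replicate 1 among the early libraries, and from 332.2 to 427.2 among the late ones. The ranges of both genes overlapped between stages. Gata6 was between 32.4 and 81.5 FPKM early and between 64.1 and 74.9 late, and Foxa2 between 35.0 and 93.4 early and 66.4 and 81.4 late. Sall4, a factor shared by XEN and pluripotent cells, spanned 19.7 to 38.5 FPKM early and 31.5 to 39.6 late. None of these 5 genes passed the test, a limma fit on log2(FPKM + 1) with Benjamini-Hochberg adjustment over all genes tested: the limma adjusted p was 0.641 for Sox17, 0.75 for Gata4, 0.522 for Gata6, 0.554 for Foxa2 and 0.412 for Sall4, with log2 differences of 0.22 ± 0.23 (SE), 0.22 ± 0.33, 0.40 ± 0.32, 0.39 ± 0.33 and 0.42 ± 0.26. Of the epithelial markers, Epcam was between 90.0 and 161.1 FPKM early and between 164.2 and 191.1 late, and Krt8, an intermediate filament of simple epithelia, between 300.6 and 600.3 early and between 343.4 and 641 late. Cdh1, E-cadherin, was at 50.7, 62.5 and 11.8 FPKM early and 72.4, 43.7 and 43.8 late. Krt8 and Cdh1 overlapped between stages, and Epcam was higher in all 3 late libraries by a log2 difference of 0.46 ± 0.23 (limma adjusted p 0.327).

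Across the genome, genes were called at a limma adjusted p under 0.05 and a log2 difference of at least 1. No gene was called higher in the late stage and 2 were called lower, 0.0141% of the genes tested, although 2631 genes had an unadjusted p under 0.05. Both called genes are small RNAs, named here after their values were seen. Gm24853 (snoRNA, mm10 chr12:81501240-81501360) was at 53.1, 56.2 and 43.2 FPKM in the early libraries and listed at 0 in the 3 late ones, with an adjusted p of 0.000105. Gm27605 (class misc_RNA, chr11:96200176-96200311) was at 15.9, 33.5 and 13 FPKM early and listed at 0 late, with an adjusted p of 0.0278. The quantifier's bounds put 0.5 to 1 fragment behind each early value of the first and 1 to 2 behind those of the second, so both calls rest on a handful of reads. Among protein-coding genes of at least 1000 nt, 0 were called in either direction.

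The count of calls depended on day 16 replicate 1. Without it, limma called 308 genes higher (2.17% of those tested) and 397 lower (2.79%), while leaving out any of the other 5 libraries gave 0 higher and 1 or 2 lower, as the bar plot of calls by library left out shows. Because that library lies close to the late ones, leaving it out was not taken as the main result. With all 21 libraries sharing 1 estimate of the spread, with 14 residual degrees of freedom to which the 7 CiPSC lines give the most, 218 genes were called higher (1.53%) and 526 lower (3.7%).

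**Figure D1:**
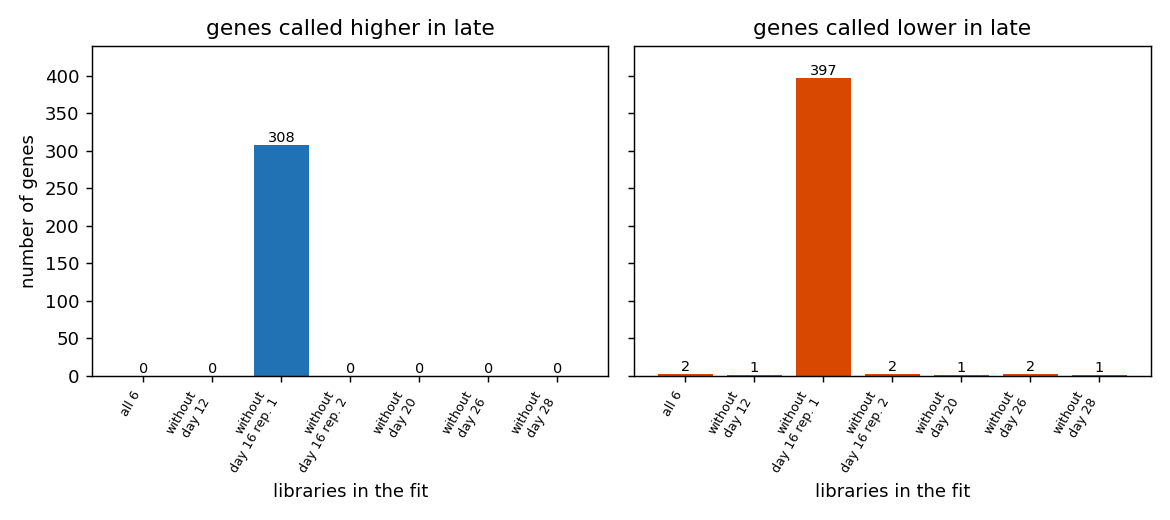
Number of genes called higher (left) or lower (right) in late than in early intermediate cells by limma, with all 6 libraries and with each library left out in turn. Bars start at 0 and carry their counts: 308 and 397 genes were called without day 16 replicate 1, and no other bar exceeds 2.

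Beside the test, genes were described by whether the stages overlapped, with no p. In 254 genes all 3 late libraries lay above all 3 early ones with a log2 difference of means of at least 1 (1.79% of the genes tested), and in 614 all 3 lay below by as much (4.32%). From here on, "without overlap" means that both conditions were met. A gene near the floor in either stage could pass the filter on low values through the other stage alone, which favoured its direction. The higher set holds 208 protein-coding genes and 20 long intergenic RNAs (7.87% of the set, against 1.3% of all genes tested), and 576 of the lower set are protein-coding. In the lower set, day 12 was the highest library for 502 genes (81.8%), and it was the highest early library for 35.5% of all genes tested. Day 28 was the lowest for 490 (79.8%, against 22.8% of all), although the set's rule already places the lowest library among the late ones. Day 16 replicate 1 was the lowest of the early libraries for 503 (81.9%, against 40.2% of all). In the higher set, day 16 replicate 1 was the highest early library for 214 of 254 genes (84.3%, against 26.8% of all). Of the 254 and 614 genes, 162 and 437 were also called by the 21-library fit. The median gene differed by -0.01 between stages.

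**Figure D2:**
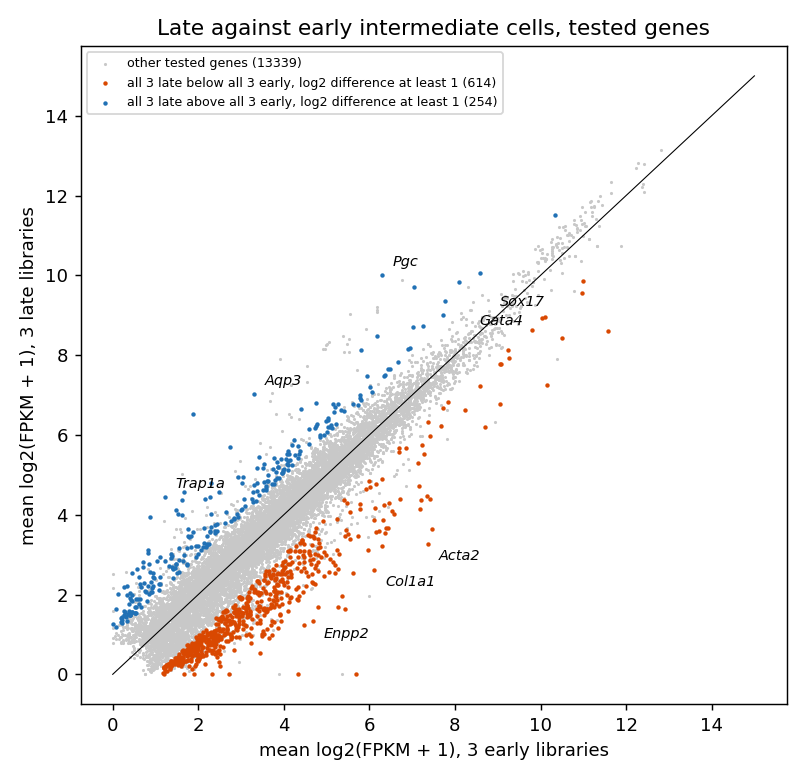
Mean log2(FPKM + 1) of the 3 early (x axis) and 3 late (y axis) libraries for the 14207 genes tested, with the line of equal levels. Blue points are the 254 genes and orange points the 614 genes whose libraries did not overlap between stages and whose means differed by at least 1 on the log2 scale; Sox17 and Gata4 lie near the line.

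The reference libraries, which took no part in choosing these genes, showed where they are otherwise expressed. Among the 5 reference groups, MEFs had the highest mean for 435 of the 614 lower genes (70.8%), against 23.2% of all genes tested. CeXEN lines had the highest mean for 134 of the 254 higher genes (52.8%), against 24.1% of all. The MEF mean was at least 4 times the XEN mean for 67.6% of the lower genes and 10.5% of all genes tested, and the XEN mean at least 4 times the MEF mean for 48.0% of the higher genes and 8.3% of all. A further 44 of the higher genes (17.3%) were under 1 FPKM in every MEF and XEN library, against 6.0% of all genes tested.

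The 12 named genes with the largest differences downward included actins, collagens and Thy1 of the contractile, matrix-secreting fibroblast. Acta2, the smooth muscle actin of activated fibroblasts, was at 428.3 FPKM on day 12 and at 54.1 and 191.1 in day 16 replicates 1 and 2, and then at 21 on day 20, 16.6 on day 26 and 1.33 on day 28. Tagln, an actin-binding protein of the same cells, went from 393, 80.8 and 169.8 FPKM in that order to 34.7, 25.4 and 1.07. Both genes were lowest on day 28 and had no late value inside the early range, with log2 differences of -4.10 ± 1.01 (SE) and -3.82 ± 1.10. Actg2, the enteric smooth muscle actin, was at 100.3, 15.3 and 46.5 FPKM early and at 4.21, 3.12 and 0.396 late. For Acta2 the difference was -2.97 within the 4 libraries with the low-data status and -6.36 between day 28 and day 16 replicate 2. The 2 MEF libraries averaged 3364 FPKM of Acta2, and the CeXEN pair averaged 0.309.

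Col1a1, a chain of type I collagen, was at 132.7, 25.8 and 91.2 FPKM early and 6.19, 14.7 and 1.04 late, a log2 difference of -3.50 ± 0.84. Col3a1, the type III collagen chain, was at 80.5, 16.9 and 38.2 FPKM early and 4.02, 3.05 and 0.614 late. Thy1, a surface marker of fibroblasts, was at 310.1, 90.2 and 178.4 FPKM early and 33.0, 53.7 and 3.91 late. In each of the 3 genes the early values were ordered day 12, day 16 replicate 2, day 16 replicate 1, and day 28 was lowest. Of 35 tested genes in the fibroblast and mesenchyme list, 19 were lower without overlap, where 4.32% of all genes tested were, and 0 higher, and the median log2 difference was -1.80 against -0.01 over all genes. The same list had 19 genes called lower by the 21-library fit (3.7% of all genes) and 11 without day 16 replicate 1 (2.79% of all genes). Its mean level on the log2(FPKM + 1) scale was 5.42, 3.97 and 4.79 in the early libraries and 3.12, 3.66 and 2.12 in the late ones. The list median was -1.41 within the 4 libraries with the low-data status and -2.62 between day 28 and day 16 replicate 2. In bulk RNA a smaller share of fibroblast-like cells and less fibroblast RNA per cell cannot be told apart.

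**Figure D3:**
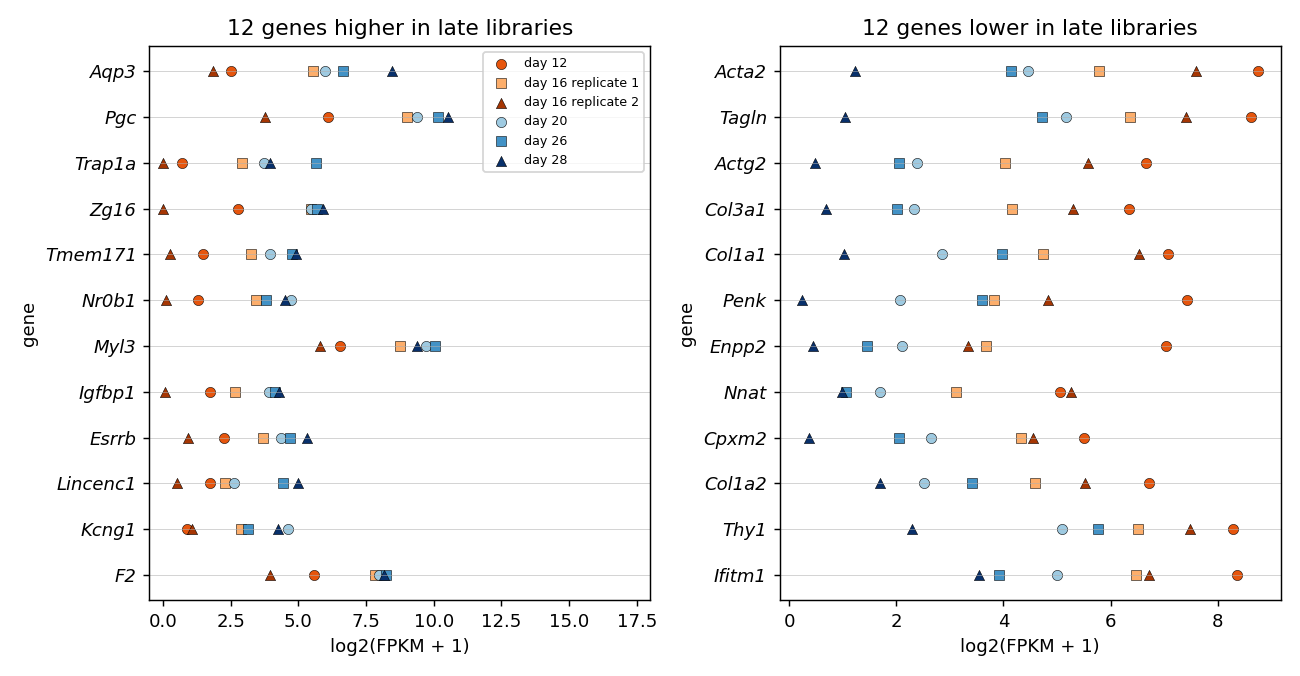
Level, as log2(FPKM + 1), in each of the 6 libraries of the 12 genes with the largest differences upward (left) and downward (right) among genes without overlap between stages. Orange symbols are early and blue symbols late libraries; day 16 replicate 1 (light orange square) is the highest early library in all 12 genes on the left, and day 28 (dark blue triangle) is the lowest in all 12 on the right.

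Most tested genes of 2 muscle lists followed the same direction. Myl3, a myosin light chain that neither list holds, was higher late without overlap, by a log2 difference of 2.67 ± 0.69. Of 23 tested genes in the list of contractile and TGF beta response genes, 13 were lower without overlap and 0 higher (median -1.40), and of 19 tested genes in the striated muscle list 7 were lower and 0 higher (median -1.34), where 4.32% of all genes tested were lower. Limma called 6 of the contractile genes and 3 of the muscle genes lower with all 21 libraries (3.7% of all genes), and 6 and 1 without day 16 replicate 1 (2.79% of all genes). Actc1, the cardiac actin, was at 28.6, 9.90 and 6.17 FPKM early and 1.90, 1.44 and 0.122 late. Tnnt3, the troponin T of fast skeletal muscle, was at 24.4, 6.41 and 5.97 FPKM early and 2.78, 1.04 and 0.856 late. The muscle determination factor Myod1 and the differentiation factor Myog, which were looked up after the list was seen, were at 2.81 and 2.70 FPKM on day 12 and at 0.0472 and 0.06 on day 28. Markers of striated muscle were thus present beside the fibroblast genes on day 12, and all 27 list members together summed to 92.2 to 290.8 FPKM early and 29.3 to 83.1 late with none at 0 throughout, and their part in the contractile genes' difference was not tested. The list's mean log2(FPKM + 1) was 3.604 on day 12, and 0.783 and 3.148 in MEF replicates 1 and 2. Actc1 was at 0.242 and 26.8 FPKM in these MEF libraries, so MEF replicate 2 held such markers too.

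Serum response factor binds the CArG box, an element found before many actin and myosin genes. Upstream sequence of 250 bases from RefSeq (GRCm38.p6) was searched on both strands for a perfect CArG box. It was found in 2 of 13 contractile list genes and 2 of 16 striated muscle list genes that have an entry, and in 150 of the 9787 tested genes with one (1.53%). The 3 members below were picked because they hold the box, which is in capitals, and show where it lies. A match is a description of these letters and not a shown site. Both lists were written by hand for such genes, so their shares were in part set by that choice.
Actc1: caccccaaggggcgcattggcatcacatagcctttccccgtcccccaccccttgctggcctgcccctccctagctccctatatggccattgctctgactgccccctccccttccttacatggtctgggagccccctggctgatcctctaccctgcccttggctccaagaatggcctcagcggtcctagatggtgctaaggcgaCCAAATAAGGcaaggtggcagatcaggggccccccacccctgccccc
Myl9: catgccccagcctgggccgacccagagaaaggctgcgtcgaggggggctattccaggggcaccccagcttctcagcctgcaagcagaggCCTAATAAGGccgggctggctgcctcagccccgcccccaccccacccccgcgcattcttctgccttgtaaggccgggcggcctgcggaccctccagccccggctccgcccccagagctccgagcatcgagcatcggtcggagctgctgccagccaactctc
Cnn2: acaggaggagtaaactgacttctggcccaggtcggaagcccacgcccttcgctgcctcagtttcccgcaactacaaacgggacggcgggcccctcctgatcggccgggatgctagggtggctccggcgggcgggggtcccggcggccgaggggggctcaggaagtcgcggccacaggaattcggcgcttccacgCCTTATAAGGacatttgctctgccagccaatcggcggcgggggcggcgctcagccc

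The 3 stretches are chr2:114052876-114053125 on the minus strand (Actc1), chr2:156775214-156775463 on the plus strand (Myl9) and chr10:79988350-79988599 on the plus strand (Cnn2). The box begins 47, 161 and 56 bases before the gene's start. Myl9, the regulatory light chain of smooth muscle myosin, was at 621.7, 156.1 and 277.2 FPKM early and 101.3, 116 and 79.5 late, and Cnn2, a calponin of non-muscle cells, at 128.9, 52.5 and 68.9 early and 39.4, 38.2 and 15.6 late. Neither gene overlapped between stages.

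Other genes high early were secreted or imprinted. Enpp2, the enzyme autotaxin that makes lysophosphatidic acid, was at 130.3, 11.8 and 9.09 FPKM early and 3.29, 1.73 and 0.353 late, and no MEF or XEN mean was above 0.681. Penk, the precursor of enkephalin peptides, was at 171.7, 13.1 and 27.5 FPKM early and 3.19, 11.1 and 0.187 late. Day 12 alone set the high end of both genes.

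Imprinted genes differed among themselves. Igf2, a growth factor expressed from the paternal allele, was at 2759, 753.2 and 714.7 FPKM early and at 262.1, 110.5 and 120.6 late, and H19, the maternally expressed RNA of the same domain, at 8557, 2050 and 1652 early and 377.6, 308 and 509.8 late. The log2 differences were -2.90 ± 0.57 for Igf2 and -2.97 ± 0.60 for H19. Nnat, an imprinted membrane proteolipid, was at 32.1, 7.63 and 37.3 FPKM early and 2.23, 1.10 and 0.977 late. Mest and Ndn, both paternally expressed, were lower without overlap too, at -2.39 ± 0.59 and -2.0 ± 0.42. These 5 were the only members without overlap among 24 tested, where 4.32% of all genes tested were lower, and the list's median was -0.12.

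The 12 named genes with the largest differences upward have varied roles, and the 2 largest encode a channel and a protease. Aqp3, a water and glycerol channel of epithelia, was at 4.76, 45.6 and 2.63 FPKM on day 12 and in day 16 replicates 1 and 2, and at 62.1, 100.8 and 349.4 on days 20, 26 and 28, a log2 difference of 3.72 ± 1.02. Pgc, the gastric protease precursor progastricsin, was at 67.3, 518.8 and 12.7 FPKM early and 663.3, 1147 and 1465 late. In both genes day 16 replicate 1 was far above the other early libraries and near day 20. Pgc averaged 622.5 FPKM in CeXEN and 0.31 in MEF. For Aqp3 the difference was 2.29 within the 4 libraries with the low-data status and 6.60 between day 28 and day 16 replicate 2.

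Trap1a, an X-linked gene of placenta and tumours, was at 0.639, 6.58 and 0 FPKM early and 12.4, 49.6 and 14.4 late, and averaged 154.3 in CeXEN. Myl3, a myosin light chain that is not in the muscle list, was at 93.1, 432.2 and 54.8 FPKM early and 831.6, 1060 and 666.4 late, with 575.9 in CeXEN and 0.153 in MEF. F2, which encodes prothrombin, was at 47.1, 225.7 and 14.7 FPKM early and 250.2, 301.3 and 283.9 late. Kcng1, a modifier subunit of potassium channels, was at 0.866, 6.35 and 1.13 FPKM early and 23.5, 7.82 and 18 late. Zg16, a lectin of secretory granules, differed from these in the reference cells: it was at 5.84, 43.4 and 0 FPKM early and 43.6, 51.0 and 58.6 late, and no reference group averaged more than 0.162. The limma adjusted p of the 12 genes was 0.225 to 0.258 with the 6 libraries, and 11 of the 12 were called by the 21-library fit.

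Within the endoderm lists few members moved apart. Of 21 tested endoderm and XEN regulators, 2 were higher without overlap, where 1.79% of all genes tested were: Ihh, the hedgehog ligand of visceral endoderm, at 92.0, 136.8 and 80.9 FPKM early and 190.3, 196.4 and 311.1 late, and Foxq1, a forkhead factor, at 24.3, 40.6 and 21.8 early and 54.5, 50.3 and 82.8 late. Of 22 tested parietal endoderm and basement membrane genes, 3 were higher and 1 lower. Plod2 and P4ha1, which hydroxylate collagen, had log2 differences of 1.62 ± 0.43 and 1.14 ± 0.31, Fabp3, a fatty acid carrier, 1.19 ± 0.36, and Plat, tissue plasminogen activator, -1.62 ± 0.57. Of 17 tested visceral endoderm genes, 4 were higher and 1 lower. Among the higher ones, Apoa1, Apoc2 and Apoa4 would not have met the filter on low values by their early libraries. The filter thus favoured their upward direction. Apoa1, the main protein of HDL, was at 1.82, 0.742 and 0.151 FPKM early and 3.54, 3.54 and 26.8 late, a low level next to Sox17. Cubn, a receptor of the absorptive visceral endoderm, was at 7.09, 8.27 and 31.1 FPKM early and 6.53, 5.93 and 3.60 late. Among 28 epithelial genes, Cldn4, Cldn6 and Elf3 were higher without overlap and 0 lower. Cldn4, a tight junction claudin, was at 70.5, 51.1 and 4.15 FPKM early and 86.5, 112.9 and 136.7 late, so that day 16 replicate 2 alone made most of its difference. That library also had the lowest mean level of the epithelial list, 3.50 against 4.51 to 5.07 in the other 5. The epithelial median of 0.36 was -0.04 within the 4 libraries with the low-data status and 1.31 between day 28 and day 16 replicate 2, so its direction was not the same in both.

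Genes of the pluripotency network were low but partly apart. Of 36 listed members, 22 passed the filter on low values. Of these 22, 4 were higher without overlap, where 1.79% of all genes tested were, and 0 lower, with a median of 0.74. Nanog, Zfp42 and Pou5f1 would not have met the filter on their early values. It thus favoured an upward direction for them, and the counts and median draw no support from these genes. Limma called 5 higher with all 21 libraries (1.53% of all genes) and 3 without day 16 replicate 1 (2.17% of all genes). The median was 0.42 within the 4 libraries with the low-data status and 1.15 between day 28 and day 16 replicate 2. Esrrb, an orphan receptor of the naive network, was at 3.80, 11.8 and 0.898 FPKM early and 19.7, 25.0 and 39.1 late, against a mean of 137.2 in ESC. Nanog was at 0.176, 0.546 and 0.0717 FPKM early and 1.43, 2.79 and 1.17 late, against 433.4 in ESC, and rested on 1 to 12.4 fragments early and 27.2 to 43.6 late. Zfp42, also called Rex1, was at 0.307, 1.00 and 0.883 FPKM early and 1.78, 4.62 and 3.56 late. Pou5f1, the central factor of pluripotency, did overlap: it was at 0, 0.521 and 0.236 FPKM early and at 0.427, 18.9 and 6.24 on days 20, 26 and 28. Its late values thus lay above the early range on days 26 and 28 and inside it on day 20, and the limma adjusted p was 0.245. The ESC mean of Pou5f1 was 657.6 FPKM. Sox2 was at 2.57, 8.03 and 1.69 FPKM early and 4.51, 8.65 and 10.6 late. Nr0b1, the orphan receptor Dax1 encoded on the X chromosome, was at 1.44, 9.87 and 0.0799 FPKM early and 25.8, 13 and 22 late, with means of 42.4 in ESC and 0 in CeXEN. Lin28a, an RNA-binding protein of early development, was at 9.41, 24.4 and 70.6 FPKM early and 46.6, 35.0 and 32.4 late, and its sign depended on the libraries used. Of 24 listed germ cell genes only 5 passed the filter on low values, so no count is read from them. Xlr3a was at 8.20, 17.6 and 2.29 FPKM early and 22.6, 55.0 and 21.1 late. Xlr3a belongs to a family of near copies on the X chromosome, and how the quantifier shared fragments among copies is not given.

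**Figure D4:**
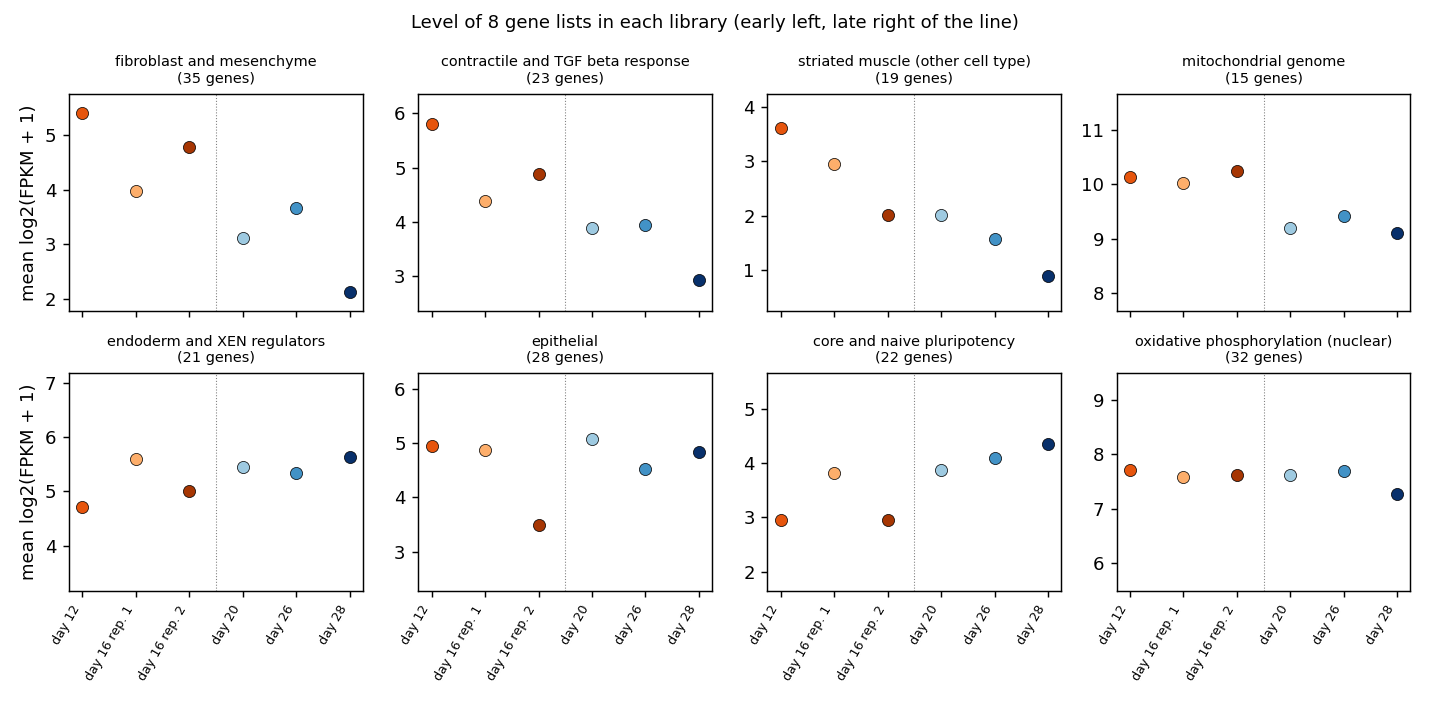
Mean log2(FPKM + 1) of the tested members of 8 gene lists in each library, with early libraries left and late libraries right of the dotted line. Each vertical axis spans the same 4 log2 units. The fibroblast list goes from 5.42 on day 12 to 2.12 on day 28, the mitochondrial genome list separates the stages, and the epithelial list is lowest in day 16 replicate 2.

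Signalling lists are set beside all genes tested, of which 4.32% were lower and 1.79% higher without overlap. In the FGF and MAPK feedback list 5 of 20 tested genes were lower without overlap and 0 higher (median -0.87). Etv4 and Etv5, ETS factors switched on by FGF signals, were at 16.9, 4.16 and 12.7 and at 19.4, 5.86 and 13.6 FPKM early, and at 1.58, 2.89 and 0.658 and at 2.16, 3.61 and 2.43 late. Fgfr2, a receptor of the pathway, was at 22.8, 8.51 and 10.4 FPKM early and 3.38, 2.98 and 3.44 late, and its late libraries lay close together. Ccnd1, the D-type cyclin that is also in the Wnt list, was at 166.3, 45.1 and 102.1 FPKM early and 18.3, 25.8 and 8.68 late. In the Wnt list 5 of 21 were lower and 2 higher. Notum, which inactivates Wnt ligands, was at 78.4, 19.1 and 63.4 FPKM early and 9.73, 15.4 and 5.66 late. The inhibitors differed in direction: Wif1, which binds Wnt, was at 7.92, 0.705 and 4.90 FPKM early and 0.137, 0.316 and 0.12 late, and Dkk1, which binds the co-receptor, was at 1.21, 7.82 and 7.89 early and 13.9, 29.1 and 29.3 late. Id3, an inhibitor of helix-loop-helix factors induced by BMP, was the single BMP list member of 18 without overlap, a share near that of all genes, at 155.1, 29.3 and 135.4 FPKM early and 14.1, 27.6 and 3.80 late.

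Cyclic AMP acts through CREB, which binds the cyclic AMP response element, whose core is TGACG. Of 21 tested genes in the list of cyclic AMP and immediate early genes, 5 were lower without overlap, where 4.32% of all genes tested were, and 0 higher (median -0.41). Limma called 4 lower and 1 higher with all 21 libraries (3.7% and 1.53% of all genes) and 0 in either direction without day 16 replicate 1. Nr4a1, an immediate early orphan receptor, was at 16.8, 16.8 and 11.6 FPKM early and 6.65, 5.44 and 1.45 late, a log2 difference of -1.68 ± 0.43. Here day 16 replicate 1 lay with day 12 and not near the late libraries. The same held for Pde10a, a phosphodiesterase, at 16.4, 16.4 and 11.6 FPKM early and 7.81, 4.95 and 2.58 late, and for Crem, a cyclic AMP responsive factor, at 18.1, 17.3 and 14.4 early and 8.82, 8.79 and 5.41 late. Ppargc1a, a coactivator of mitochondrial genes, was at 16.2, 8.78 and 7.96 FPKM early and 3.21, 3.34 and 3.94 late. Pde4b was at 6.03, 1.82 and 1.49 FPKM early and 0.582, 0.752 and 0 late. TGACG was found, on either strand, in the 250 upstream bases of 13 of the 16 listed genes that have an entry, and in 2997 of the 9787 tested genes with one (30.6%). The same search found it in 17.7% of the lower genes without overlap. The list was written by hand for cyclic AMP and immediate early genes, so its share was in part set by that choice. It is not read as a result of these data. The 3 members below were picked because they hold the letters, and show their place, in capitals, where they read CGTCA on the strand printed.
Nr4a1: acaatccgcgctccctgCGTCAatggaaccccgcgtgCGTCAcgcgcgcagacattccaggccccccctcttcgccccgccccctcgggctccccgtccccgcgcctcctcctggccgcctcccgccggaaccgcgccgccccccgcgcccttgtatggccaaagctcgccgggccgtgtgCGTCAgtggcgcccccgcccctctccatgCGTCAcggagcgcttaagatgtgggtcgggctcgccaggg
Pde4b: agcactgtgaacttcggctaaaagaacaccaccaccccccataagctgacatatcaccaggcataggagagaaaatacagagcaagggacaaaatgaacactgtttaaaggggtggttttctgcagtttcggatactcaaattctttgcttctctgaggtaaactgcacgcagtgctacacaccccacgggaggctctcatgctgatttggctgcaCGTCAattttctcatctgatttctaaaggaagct
Ppargc1a: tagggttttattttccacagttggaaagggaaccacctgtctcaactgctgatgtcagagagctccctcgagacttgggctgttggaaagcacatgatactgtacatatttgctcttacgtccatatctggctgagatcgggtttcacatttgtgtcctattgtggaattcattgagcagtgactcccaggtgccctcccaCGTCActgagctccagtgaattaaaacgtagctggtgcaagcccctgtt

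These stretches of GRCm38.p6 are chr15:101266596-101266845 (plus strand, Nr4a1), chr4:102421305-102421554 (plus strand, Pde4b, the first of its 4 RefSeq starts that holds the letters) and chr5:51567726-51567975 (minus strand, Ppargc1a). Nr4a1 has 4 copies of the core, beginning 233, 213, 69 and 40 bases before its start, and Pde4b and Ppargc1a have 1 each, at 34 and 49 bases.

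Transcripts of the mitochondrial genome were lower late, and nuclear genes of the same complexes were not apart. All 15 tested mitochondrial genes had a lower late mean. Of them 8 were lower without overlap, where 4.32% of all genes tested were, and the list's median log2 difference was -1.09. mt-Cytb, the cytochrome b of complex III, was at 2234, 1620 and 2254 FPKM early and 732, 889.1 and 663.3 late, a log2 difference of -1.41 ± 0.21 with an adjusted p of 0.225. mt-Nd4, a complex I subunit, was at 716.2, 385.7 and 829 FPKM early and 213.7, 273.4 and 242.3 late. The 7 complex I genes ran from -1.34 to -0.90, and the 5 genes of cytochrome oxidase and ATP synthase from -0.57 to -0.15. mt-Co1, of cytochrome oxidase, overlapped, at 5454, 4819 and 5686 FPKM early and 3872, 4904 and 5754 late. mt-Nd5 and mt-Nd6 lie on opposite strands beside each other, and without a stated strand setting their fragments may not be separable. The mitochondrial share of all FPKM was 3.68%, 3.33% and 4.44% early and 2.35%, 2.64% and 2.62% late. Of 32 tested nuclear genes of oxidative phosphorylation 0 were without overlap at that size, and their median was -0.09. Within the 4 libraries with the low-data status the mitochondrial median was -0.91 and the nuclear median 0.01. Between day 28 and day 16 replicate 2 they were -1.39 and -0.37. Without day 16 replicate 1, limma called 7 of the 15 mitochondrial genes lower and 0 of the 32 nuclear ones (2.79% of all genes). With all 21 libraries it called 0 of the 15 and 0 of the 32 lower (3.7% of all genes).

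**Figure D5:**
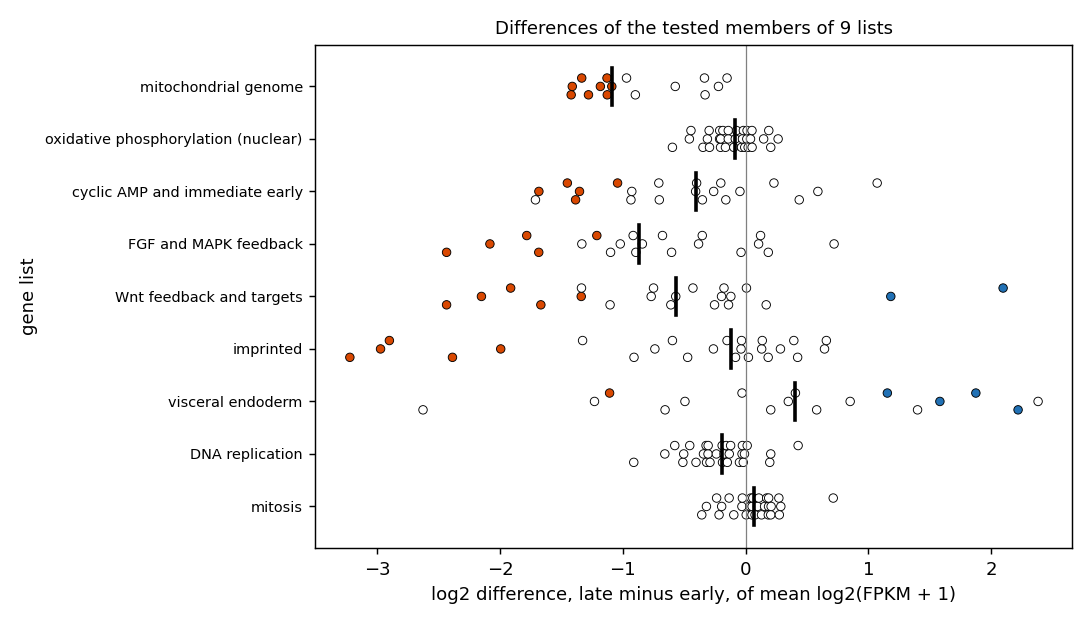
Log2 difference, late minus early, of each tested member of 9 gene lists, with a black bar at the list median. Orange and blue points are members lower or higher without overlap and by at least 1, and open points are the rest. The 15 mitochondrial genes all lie below 0. The medians of nuclear oxidative phosphorylation, DNA replication and mitosis genes are -0.09, -0.19 and 0.07.

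At a log2 difference of at least 1, 0 of 30 DNA replication and 0 of 30 mitosis genes were without overlap, with medians of -0.19 and 0.07. Of all genes tested, 4.32% were lower and 1.79% higher. Within the 4 libraries with the low-data status the medians were 0.04 and 0.37. Between day 28 and day 16 replicate 2 they were -0.78 and -0.59, so the 2 kinds of library differed. The late mean was lower for 26 of the replication genes and 9 of the mitosis genes. Of 27 tested p53 and cell cycle arrest genes, 2 were lower without overlap, where 4.32% of all genes tested were, and 0 higher. That list's median was -0.27, with a higher late mean for 9 members and a lower one for 18. Cdkn2a, the locus of the cell cycle inhibitors p16 and p19, was at 241.6, 89.4 and 126.3 FPKM early and 56.8, 64.2 and 15.1 late, and Gadd45a, a growth arrest gene, at 79.9, 142.2 and 130 early and 77.2, 67.5 and 23.9 late. Among 32 Polycomb and histone methylation genes, Cbx7 and Ezh1 were higher without overlap, where 1.79% of all genes tested were. Ezh1, the histone methyltransferase of resting cells, was at 13.1, 22.1 and 14.6 FPKM early and 33.8, 32.8 and 45.6 late. Ddit3, the stress factor CHOP, was at 13.1, 13.5 and 11.9 FPKM early and 26.7, 32.6 and 26.5 late, with a log2 difference of 1.09 ± 0.16 and of 1.09 within each kind of library. Only Ddit3 was without overlap among 29 tested ER stress and amino acid response genes, and 1.79% of all genes tested were higher. That list's median was -0.045, with a higher late mean for 13 members and a lower one for 16. Of 32 tested Hox genes, 2 were higher and 3 lower without overlap, where 1.79% and 4.32% of all genes tested were. Hoxa13, a posterior Hox gene, was at 0.961, 1.02 and 0.77 FPKM early and 3.97, 3.16 and 3.84 late, whereas the Hoxb genes Hoxb9, Hoxb2 and Hoxb6 were lower without overlap.

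Of the markers of other cells, those of macrophages and blood were mostly low, and the neuronal and endothelial lists summed to more. Of 21 macrophage and blood genes 6 passed the filter on low values and 5 were at 0 in all 6 libraries, and the list summed to 9.18 to 48.1 FPKM early and 14.1 to 21.3 late. Lyz2, lysozyme of macrophages, was at 12.1, 1.5 and 0.477 FPKM early and 0.199, 0.127 and 0 late, and Tyrobp, a signalling adaptor of myeloid cells, at 0.182, 1.82 and 0 early and 2.79, 5.29 and 9.09 late. The 26 neuronal genes summed to 86.4 to 175.0 FPKM early and 62.7 to 163.1 late. Of 14 tested, 2 were lower without overlap, Stmn2 and Nes, where 4.32% of all genes tested were. The 15 endothelial genes summed to 157.7 to 209.6 FPKM early and 186.6 to 202.6 late, with 0 of 8 tested without overlap at that size. The part of these cells in the differences above was not tested. Of 28 tested interferon response and antigen presentation genes 4 were lower without overlap, where 4.32% of all genes tested were. They were Psmb8, Ifit2, Tap1 and Gbp2, all highest on day 12.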

How the data were processed

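RNA was measured in 21 mouse libraries, of which 6 were compared. Per the labels' protocols, total RNA was isolated with an RNeasy kit and libraries were made with a NEBNext Ultra kit. Per the submitters' processing notes, the authors used TopHat and Cufflinks on mm10; versions, annotation release and strand setting are not given in the sources used here. The deposited values are FPKM per locus with confidence bounds, 1 file per library. Read counts were not used here, and depth was compared through the FPKM of genes whose bounds correspond to 1 fragment.

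FPKM of loci sharing a gene ID were added (40 IDs). Genes with at least 1 FPKM in at least 2 of the 6 libraries were kept, 23 selenoprotein genes that passed were set aside, and 14207 genes were tested on log2(FPKM + 1), a scale that understates differences of low genes. The test was limma 3.58.1 (R 4.3.3), two-sided, with an intensity trend, stage as the only term, 4 residual degrees of freedom and Benjamini-Hochberg adjustment; it was checked on simulated data. Gene classes came from the GENCODE annotation.

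Named genes were the 12 largest differences in each direction among called genes, filled from genes without overlap where fewer were called, up to 5 such members of each list, and 14 fixed lineage genes; predicted genes, clone names, small RNAs and histone genes were left out. The members and lists were chosen with earlier results of these data known. Alternatives covered the pseudocount, filter, scaling, libraries and model.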

Additional observations from a re-analysis of the deposited data

How the results depend on the processing

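With 3 libraries a stage, taken on 5 days, the spread within a stage includes change over time, and FPKM near 1 rests on few fragments. No paired analysis was possible because the labels link no early library to a late one. The count of genes called higher, 0 with the 6 libraries, was 218 with all 21 libraries in the fit and 1 with the day 16 libraries averaged, and ran from 0 to 308 when each library was left out in turn. The count called lower, 2, was 526 with all 21 libraries, 7 with day 16 averaged, 1 with no filter, with a minimum of 5 FPKM, with the processing kind as a covariate or with the 4 libraries of the first kind alone, 0 for protein-coding genes of at least 1000 nt, and 1 to 397 with a library left out. Of the fits that left out a library, the one without day 16 replicate 1 gave the highest value of both counts. Genes higher without overlap numbered 203 to 695 with a library left out, which leaves fewer orders to meet. Those lower without overlap numbered 368 at a minimum of 5 FPKM, 1089 with day 16 averaged and 435 to 1231 with a library left out. Leaving out a library cannot undo a lack of overlap, so only the size condition could drop a gene. Of the 254 higher genes, 251 were kept without day 16 replicate 1 and 170 without day 16 replicate 2. Of the 614 lower genes, 612 were kept without day 16 replicate 1 and 402 without day 12. These were the highest and lowest numbers kept. With a library left out, Gata4 ran from -0.157 (without day 12) to 0.481, Lin28a from -0.145 (without day 12) to 1.246 and Cdh1 from -0.118 (without day 16 replicate 2) to 1.036; the cause was not tested. List medians kept their direction under quantile and median-of-ratios scaling, where the median gene lay at 0.0344 and -0.0073.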
